A study of Mus musculus with 24 samples.

Results

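The 33 genes described here encode the chaperones of the endoplasmic reticulum (ER) and the signalling, transcription and degradation factors of the unfolded protein response. They were taken by symbol from 23410 transcripts, meaning probe sets with a gene in the annotation of the array, with 1 probe set per gene (the one with the highest mean log2 level). All 33 were on the array and none was removed by a filter on low values. By role, 16 are folding factors of the ER lumen and membrane, called lumenal chaperones here, 4 are sensors of the response with the factor Xbp1 (Atf6, Ern1, Eif2ak3, Xbp1), 6 belong to the Atf4 branch (Atf4, Ddit3, Trib3, Asns, Chac1, Ppp1r15a) and 7 serve ER-associated degradation or translocation into the ER.

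The data are expression values of tissue punched from the ventral tegmental area (VTA), a midbrain region rich in dopamine neurons, from wild-type (WT) C57BL/6N mice, all male and 10-12 weeks old. The mice had free access to standard chow and lived under 12 h of light and 12 h of darkness, and tissue was collected at Zeitgeber time (ZT) 0, 4, 8, 12, 16 and 20, where ZT0 is lights on and ZT12 lights off. Each of the 6 time points holds 4 samples on 1 array each, 24 arrays in all, and each value is the log2 level of a probe set as deposited by the authors. A punch holds neurons, glia and vessels together, so fewer cells of a type and less RNA per cell cannot be told apart.

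As background, secretory and membrane proteins are folded in the ER by Hspa5 (BiP), Hsp90b1 (GRP94), the lectin chaperones Calr and Canx and the protein disulfide isomerases. When unfolded proteins accumulate, Hspa5 leaves the membrane sensors. Active Atf6 and spliced Xbp1 then raise the transcription of chaperone and degradation genes, whereas the kinase Eif2ak3 (PERK) phosphorylates the initiation factor eIF2 and so favours translation of Atf4, which drives amino acid and stress genes such as Asns, Ddit3 (CHOP) and Trib3. Amino acid shortage and other stresses reach Atf4 through other eIF2 kinases, so the branches can be used apart from each other.

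Sequences before the start sites come first, because the chaperone genes and the Atf4-branch genes are compared below by the regulatory elements they hold. The 250 bases before the start site of Hspa5, of Calr and, for contrast, of Ddit3 are printed 5′ to 3′ in the direction of the gene (RefSeq, GRCm38.p6), with a full ER stress element in capitals. The ER stress element is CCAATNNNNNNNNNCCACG, the site of NF-Y and Atf6, and was searched on both strands, so in Calr it appears as its reverse complement.
Hspa5, chr2:34771840-34772089, plus strand: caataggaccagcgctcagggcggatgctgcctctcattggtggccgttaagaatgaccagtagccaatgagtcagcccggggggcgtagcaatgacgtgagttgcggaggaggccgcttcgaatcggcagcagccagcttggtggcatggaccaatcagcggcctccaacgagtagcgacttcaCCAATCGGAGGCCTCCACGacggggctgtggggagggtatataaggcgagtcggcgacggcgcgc
Calr, chr8:84846932-84847181, minus strand: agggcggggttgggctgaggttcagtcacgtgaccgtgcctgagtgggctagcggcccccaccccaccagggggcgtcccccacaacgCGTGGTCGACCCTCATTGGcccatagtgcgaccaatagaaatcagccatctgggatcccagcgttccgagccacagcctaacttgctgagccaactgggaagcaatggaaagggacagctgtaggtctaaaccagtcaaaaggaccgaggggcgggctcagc
Ddit3, chr10:127290543-127290792, plus strand: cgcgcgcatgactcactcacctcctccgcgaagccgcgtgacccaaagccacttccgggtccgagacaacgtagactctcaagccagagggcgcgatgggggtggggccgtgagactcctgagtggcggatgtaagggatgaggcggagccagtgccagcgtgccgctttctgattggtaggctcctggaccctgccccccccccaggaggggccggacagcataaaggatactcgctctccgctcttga
Ddit3 held no match to this element in its window.

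In windows from 250 bases before to 50 bases after the start site, the ER stress element was found for 37 of 27025 genes (0.137%) and for 8 of the 30 listed genes with a window (26.7%). Besides Hspa5 and Calr these were Hsp90b1 with 2 sites, Pdia6, Canx, Dnajc3, Creld2 and the ubiquitin ligase gene Syvn1, printed with 20 bases on either side and the element in capitals.
Hsp90b1, chr10:86705618-86705676, minus strand: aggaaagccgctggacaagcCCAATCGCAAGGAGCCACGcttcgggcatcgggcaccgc
Hsp90b1, chr10:86705513-86705571, minus strand: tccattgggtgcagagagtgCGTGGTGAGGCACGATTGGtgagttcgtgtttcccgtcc
Pdia6, chr12:17266471-17266529, plus strand: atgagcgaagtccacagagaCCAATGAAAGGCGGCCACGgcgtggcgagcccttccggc
Canx, chr11:50325780-50325838, minus strand: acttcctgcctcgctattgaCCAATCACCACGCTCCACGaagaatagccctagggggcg
Dnajc3, chr14:118937807-118937865, plus strand: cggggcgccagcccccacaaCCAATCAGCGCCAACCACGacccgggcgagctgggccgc
Creld2, chr15:88819500-88819558, plus strand: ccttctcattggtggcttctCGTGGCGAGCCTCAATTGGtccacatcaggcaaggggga
Syvn1, chr19:6046512-6046570, plus strand: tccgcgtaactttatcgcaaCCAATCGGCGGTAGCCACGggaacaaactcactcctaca
Of the lumenal chaperones with a window, 7 of 14 held the element, against 0 of 6 genes of the Atf4 branch. Manf, Hyou1 and Atf6 had no window in the table used.

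The related ER stress element II, ATTGGNCCACG, was found on either strand for 12 of all genes (0.0444%) and for Herpud1 and Dnajb11 among those described. The site of Atf4 with a C/EBP partner, TGATGNAAT or TGATGNAAC, was found for 526 genes (1.95%), among them Asns, Chac1 and Herpud1. The core of the Xbp1 site, TGACGTGG, was found for 193 genes (0.714%) and for 0 of these 30. The matches of Herpud1 (both kinds), Asns and Chac1 are printed with the element in capitals, whereas that of Dnajb11 lies after the start site and is not printed.
Herpud1 ER stress element II, chr8:94386357-94386407, plus strand: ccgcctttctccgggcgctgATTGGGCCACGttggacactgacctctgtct
Herpud1 C/EBP-ATF element, chr8:94386296-94386344, plus strand: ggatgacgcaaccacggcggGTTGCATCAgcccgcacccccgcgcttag
Asns, chr6:7693204-7693252, minus strand: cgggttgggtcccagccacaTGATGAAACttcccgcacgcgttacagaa
Chac1, chr2:119351028-119351076, plus strand: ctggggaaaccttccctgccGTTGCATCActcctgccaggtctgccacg
A match is a description of the letters in the window, and absence of a match says only that these letters are not there.

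The arrays were closely alike, with pairwise correlations over transcripts of 0.962 to 0.995 and array medians of 6.71 to 6.79 log2. ZT0 replicate 4 stood apart: 327 transcripts lay more than 1 log2 unit below and 60 above the other 3 arrays of its time point, against at most 17 in both directions for any other array. Its mean over 10 dopamine neuron markers was the lowest of all arrays (7.61, range 7.61 to 8.04), its oligodendrocyte marker mean the highest (9.31) and its endothelial marker mean the lowest (6.97). The dopamine markers Th, Slc6a3 and Ddc read at least 7.43, 8.01 and 7.95 log2 in every array, and 0 of the 10 differed between dawn (ZT20 and ZT0) and dusk (ZT8 and ZT12) at an unadjusted p under 0.05 in limma. The oligodendrocyte, astrocyte, microglia and endothelial marker means spanned 9.02 to 9.31, 8.49 to 8.75, 6.64 to 6.88 and 6.97 to 7.24 over the arrays. Of the markers 1 of 7 endothelial ones was higher at dawn, 1 of 7 oligodendrocyte and 1 of 6 GABA and glutamate neuron ones were lower, and 0 of 9 astrocyte and 0 of 8 microglia ones differed at that cut-off. In early light against early dark, defined below, 2 of 8 microglia markers and 1 each of the astrocyte, endothelial and GABA and glutamate neuron ones were higher, with 0 lower, and the part of cell composition in the results was not tested. The labels give no processing batch.

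Across the day the lumenal chaperones Hspa5 and Calr had the lowest unadjusted p of the 33 genes, with levels highest at ZT0 and lowest at ZT12, while no gene of the Atf4 branch had an unadjusted p under 0.05 in the test of a 24-h rhythm. None of the 33 genes passed an adjusted p under 0.05 (Benjamini-Hochberg over all transcripts) in limma's F-test of a 24-h cosine, which called 7 of 23410 transcripts (0.0299%). At an unadjusted p under 0.05, the cut-off used in the study, 6 of 33 were called (18.2%), beside 2085 of all transcripts (8.91%) and 1013 of the 11705 transcripts above the median level (8.65%). These were 5 of 16 lumenal chaperones, 0 of 4 sensors, 0 of 6 genes of the Atf4 branch and 1 of 7 degradation and translocation genes. All 6 had been listed as rhythmic by the study from these same arrays, so the counts are not independent evidence. With the time points as 6 unordered groups in place of the cosine, 3 of the 33 genes were at that cut-off (5.1% of all transcripts).

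Hspa5 encodes BiP, the Hsp70 of the ER lumen and the master regulator of the sensors. Its log2 level was 9.97, 9.84, 9.89 and 9.79 at ZT0, 9.63, 9.68, 9.76 and 9.58 at ZT4, 9.47, 9.61, 9.52 and 9.56 at ZT8, 9.47, 9.56, 9.41 and 9.30 at ZT12, 9.80, 9.70, 9.80 and 9.61 at ZT16, and 9.67, 9.84, 9.80 and 9.44 at ZT20. All 4 arrays of ZT0 lay above every array of ZT4, ZT8 and ZT12, and ZT20 replicate 4 lay far below the other arrays of its time point. The mean was 9.87 ± 0.08 (SD, n = 4) at ZT0 and 9.44 ± 0.11 at ZT12. The cosine had a fitted peak-to-trough fold of 1.27 (log2 0.34 ± 0.07, SE), peak at ZT 22.6 ± 0.803 h (SE), with unadjusted p = 2.3e-04 and adjusted p = 0.146 by limma. Without ZT20 replicate 4 the adjusted p was 0.0132, and after a further quantile normalization of the arrays it was 0.0359.

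Calr encodes calreticulin, the soluble lectin chaperone that binds glycoproteins and calcium in the lumen. The log2 levels of Calr were 8.72, 8.58, 8.69 and 8.73 at ZT0, 8.52, 8.53, 8.49 and 8.53 at ZT4, 8.31, 8.43, 8.46 and 8.43 at ZT8, 8.30, 8.32, 8.23 and 8.33 at ZT12, 8.30, 8.57, 8.48 and 8.28 at ZT16, and 8.46, 8.60, 8.51 and 8.34 at ZT20. ZT0 lay above every array of ZT4, ZT8, ZT12 and ZT16, whereas ZT20 replicate 2 reached into the range of ZT0. The means were 8.68 ± 0.07 (SD, n = 4) at ZT0 and 8.30 ± 0.05 at ZT12. The fitted peak-to-trough fold of 1.24 (log2 0.32 ± 0.06, SE), peak at ZT 0.283 ± 0.717 h (SE), came with unadjusted p = 4.94e-05 and adjusted p = 0.0964 by limma, which fell to 0.0252 without ZT20 replicate 4, to 0.0256 without ZT16 replicate 2 and to 0.0359 after the further quantile normalization.

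Pdia4 and Pdia6 encode thiol oxidoreductases of the disulfide isomerase family. For Pdia4 the arrays read 7.25, 6.99, 6.94 and 6.90 at ZT0, 6.89, 6.91, 6.996 and 6.76 at ZT4, 6.61, 6.83, 6.73 and 6.86 at ZT8, 6.69, 6.96, 6.56 and 6.73 at ZT12, 7.03, 6.96, 7.08 and 6.73 at ZT16, and 6.74, 6.88, 7.03 and 6.94 at ZT20, so ZT0 and ZT12 overlapped in ZT12 replicate 2. The fitted peak-to-trough fold of 1.18 (log2 0.24 ± 0.08, SE), peak at ZT 22.1 ± 1.22 h (SE), had unadjusted p = 0.0147 and adjusted p = 0.463 by limma. A second probe set of Pdia4 had an unadjusted p of 0.0278 and a peak at ZT 1.55.

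For Pdia6 the arrays read 7.86, 7.87, 7.69 and 7.82 at ZT0, 7.71, 7.66, 7.88 and 7.85 at ZT4, 7.55, 7.75, 7.66 and 7.67 at ZT8, 7.62, 7.63, 7.74 and 7.83 at ZT12, 7.61, 7.83, 7.91 and 7.62 at ZT16, and 7.79, 7.97, 7.90 and 7.76 at ZT20. The highest mean was that of ZT20 (7.86 ± 0.10, SD, n = 4) and the lowest that of ZT8 (7.66 ± 0.08), and most time points overlapped. The fitted peak-to-trough fold of 1.13 (log2 0.17 ± 0.06, SE), peak at ZT 21.8 ± 1.4 h (SE), had unadjusted p = 0.0367 and adjusted p = 0.537 by limma.

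Sdf2l1, an ER lumen protein that works with the Hspa5 cochaperones, read 7.41, 7.74, 7.52 and 7.79 at ZT0, 7.54, 7.55, 7.80 and 7.59 at ZT4, 7.47, 7.41, 7.61 and 7.56 at ZT8, 7.28, 7.45, 7.37 and 7.49 at ZT12, 7.66, 7.50, 7.68 and 7.40 at ZT16, and 7.56, 7.62, 7.70 and 7.63 at ZT20. ZT20 was the tightest group and lay above every ZT12 array, whereas ZT0 spread over most of the range. The fitted peak-to-trough fold of 1.15 (log2 0.21 ± 0.07, SE), peak at ZT 23.4 ± 1.29 h (SE), had unadjusted p = 0.0216 and adjusted p = 0.497 by limma.

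Herpud1 encodes a membrane protein that organises the degradation complex of the ER. Its lowest mean was at ZT0 and its highest at ZT16, and the arrays read 7.83, 7.80, 7.73 and 7.82 at ZT0, 7.88, 7.84, 7.95 and 7.97 at ZT4, 7.96, 7.96, 7.97 and 7.84 at ZT8, 7.88, 7.98, 7.95 and 8.07 at ZT12, 8.04, 7.92, 8.05 and 7.94 at ZT16, and 7.85, 7.90, 7.998 and 7.92 at ZT20. All 4 arrays of ZT0 lay below all 4 of ZT12. The fitted peak-to-trough fold of 1.11 (log2 0.15 ± 0.05, SE), peak at ZT 12.9 ± 1.3 h (SE), had unadjusted p = 0.023 and adjusted p = 0.497 by limma.

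**Figure D1:**
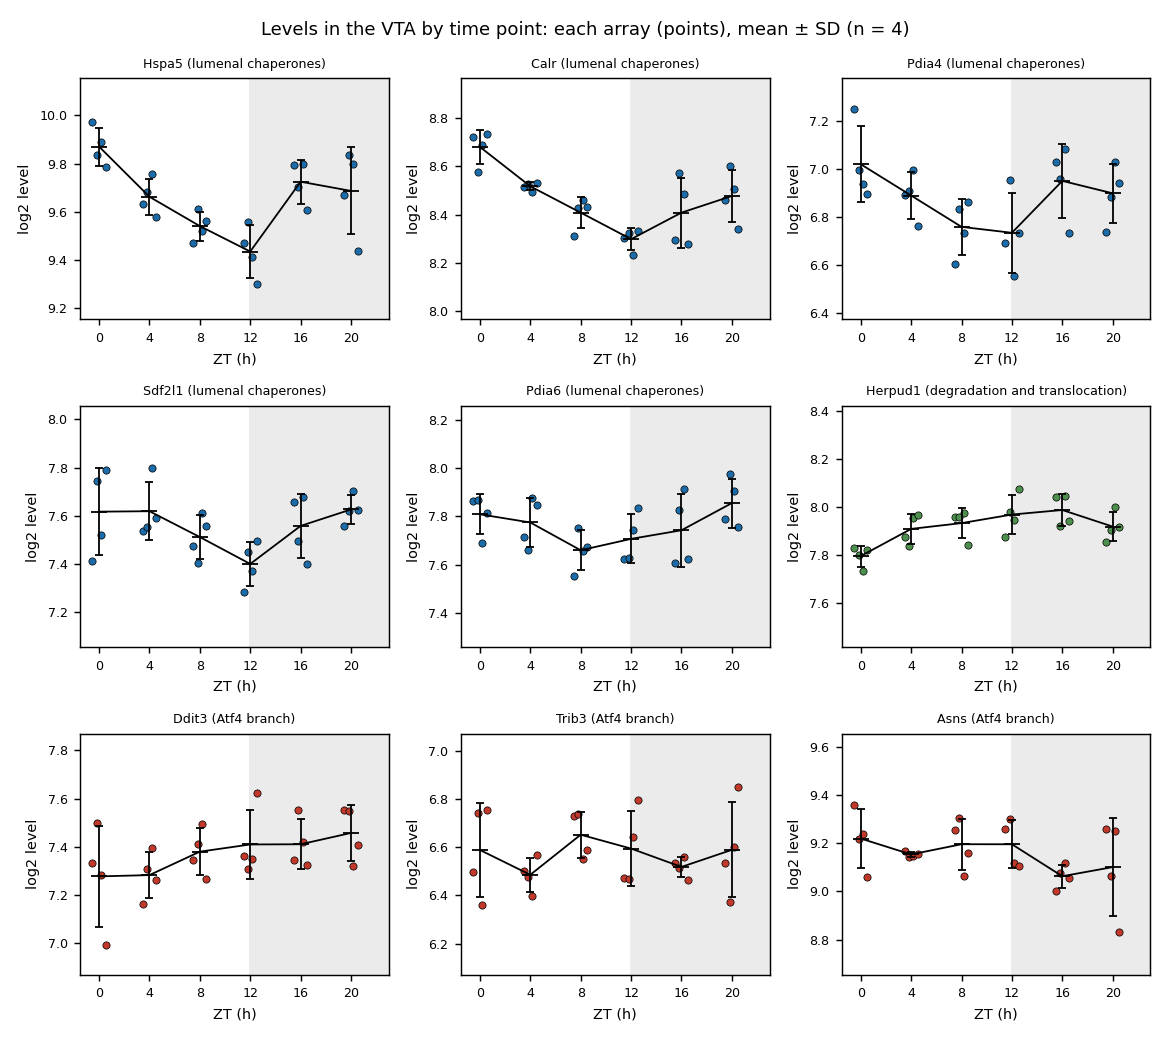
Log2 level of 9 genes on the y axis against ZT in hours on the x axis, with every array as a point, the mean ± SD of 4 arrays as a line with bars, and the dark phase in grey; each y axis spans 1 log2 unit. Hspa5 and Calr run from means of 9.87 and 8.68 at ZT0 down to 9.44 and 8.30 at ZT12, Herpud1 is lower at ZT0 than at ZT12, and Ddit3, Trib3 and Asns overlap between most time points.

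Among the other lumenal chaperones, Hsp90b1 (GRP94) had its highest mean at ZT0 and its lowest at ZT12, but the ZT0 arrays ranged from 10.03 to 10.66 and the unadjusted p was 0.0635. The lowest of these was ZT0 replicate 4, as for Pdia3 (8.10 against 8.76 to 9.44 in the other 3), Dnajb9 (6.96 against 7.68 to 8.01) and Canx (10.60 against 11.04 to 11.27). With Selenok, Pdia3, Dnajb9 and Canx were the 4 genes more than 0.5 below the mean of the other ZT0 arrays there, as were 7.57% of all transcripts. Against the same mean, Hspa5 on that array differed by -0.11 and Calr by 0.07.

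The mean was highest at ZT0 for 8 of the 16 lumenal chaperones (50%), beside 18.5% of all transcripts, and lowest at ZT12 for 9 of the 16 (56.2%), beside 15.7%. The cochaperones Dnajb11 and Dnajc3 and the lectin chaperone Canx were in the first group, and the trophic factor Manf, the Hsp70-like Hyou1 and Sdf2l1 only in the second. Pdia6, the disulfide isomerase P4hb, the reductase Dnajc10, Creld2 and the cochaperone Dnajb9 were in neither. In the Atf4 branch 2 of 6 means were highest at ZT0 (Atf4 and Asns) and 0 lowest at ZT12. The median of the 16 lumenal chaperones, each centred on its own mean, ranged over the 4 arrays from -0.03 to 0.23 log2 at ZT0 and from -0.11 to -0.05 at ZT12, without overlap, whereas that of the 6 Atf4-branch genes ranged from -0.08 to 0.09 at ZT0 and from -0.02 to 0.05 at ZT12. For the lumenal chaperones ZT0 and ZT12 are the time points with the highest and lowest average. Their average was -0.05 at ZT8 and 0.01 at each of ZT4, ZT16 and ZT20. At ZT20 the arrays ranged from -0.12 to 0.11, over the whole range of ZT12.

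**Figure D2:**
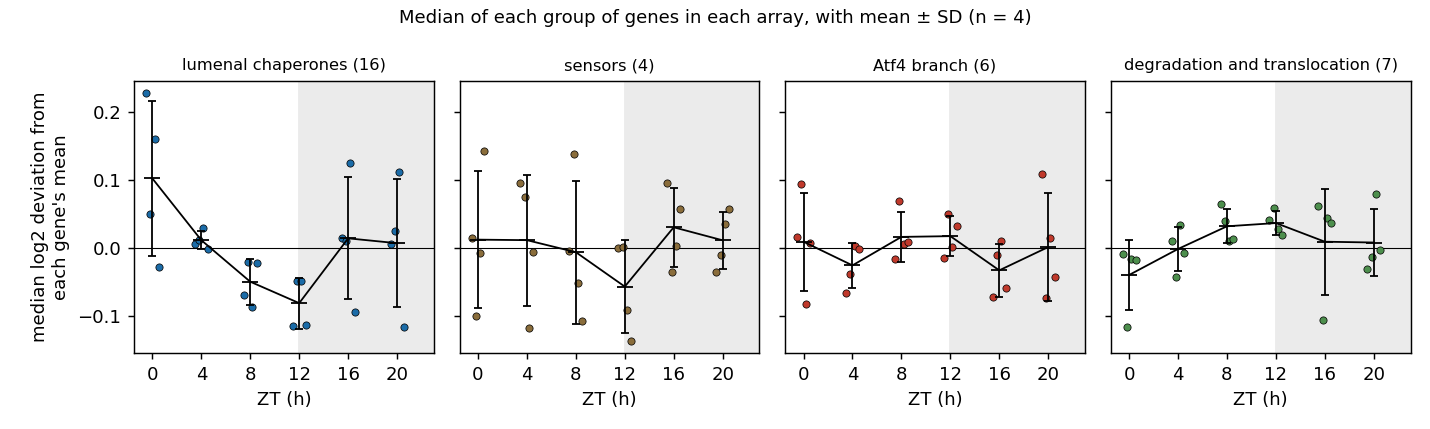
Median log2 deviation of the genes of each role from their own means (y axis) in each array (points) against ZT in hours (x axis), with mean ± SD of 4 arrays and the dark phase in grey. The lumenal chaperones average 0.10 at ZT0 and -0.08 at ZT12, and the Atf4 branch 0.01 and 0.02. At each of ZT4, ZT16 and ZT20 the lumenal chaperones average 0.01.

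Dawn was set against dusk as the mean of ZT20 and ZT0 minus the mean of ZT8 and ZT12, a split chosen with published peak times of some of these genes known. At dawn 6 lumenal chaperones were higher at an unadjusted p under 0.05 and Herpud1 was lower, with 0 of 33 at an adjusted p under 0.05 by limma. The call of Herpud1 was lost with a block for replicate number, after a further quantile normalization, without any of 5 time points and in 13 of the 24 fits that leave out 1 array. Of all transcripts 475 were higher (2.03%) and 629 lower (2.69%) at the unadjusted cut-off, and 2 passed the adjusted one (0.00854%). The log2 difference was 0.29 ± 0.06 (SE) for Hspa5, a fold of 1.22 with an unadjusted p of 2.65e-05 and an adjusted p of 0.124. It was 0.23 ± 0.05 for Calr, with an unadjusted p of 1.5e-04 and an adjusted p of 0.317. Of the 8 dawn arrays, 7 lay above every dusk array for Hspa5 and 6 for Calr. ZT4 and ZT16 are in neither group. The mean of ZT16 was above that of ZT20 for Hspa5 (9.73 against 9.69), Pdia4 (6.95 against 6.90) and Dnajb11 (8.30 against 8.25). It was below that of ZT20 for Calr, Sdf2l1 and Pdia6.

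The log2 differences of Pdia4, Sdf2l1, Pdia6 and Dnajb11 were 0.21 ± 0.07, 0.17 ± 0.06, 0.15 ± 0.06 and 0.12 ± 0.06 (SE), each with an adjusted p of 0.98 by limma. The values of Hsp90b1 (0.12 ± 0.07), Manf (0.11 ± 0.06), Pdia3 (0.11 ± 0.12), Hyou1 (0.10 ± 0.05), Creld2 (0.08 ± 0.06), Dnajc3 (0.07 ± 0.06) and Dnajb9 (0.04 ± 0.10) were above 0 without reaching the unadjusted cut-off. Canx (-0.04 ± 0.08), P4hb (-0.05 ± 0.07) and Dnajc10 (-0.10 ± 0.06) had values below 0. Without ZT0 replicate 4, 9 of the 33 genes were higher at the unadjusted cut-off, beside 453 of all transcripts (1.94%), and with array weights 12 were, beside 683 (2.92%), with Hspa5 and Calr at an adjusted p of 0.00403 and 0.0415.

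By role, 13 of 16 lumenal chaperones had a value above 0 with a median log2 difference of 0.11, beside a median of -0.00426 over all transcripts and of -0.02 over those above the median level. The medians of the sensors, the Atf4 branch and the degradation and translocation genes were 0.03, -0.02 and -0.04. Among 39 measured genes of ER folding outside the 33, 12 had a value above 0, and the median was -0.02. At an unadjusted p under 0.05 by limma, 0 of these 39 were higher at dawn and 3 lower. The median of the lumenal chaperones with the ER stress element was 0.115 (3 of 7 at an unadjusted p under 0.05 in the rhythm test) and that of those without it 0.111 (2 of 7). Of 13 measured genes with the element outside these 33, 2 were at that cut-off (15.4%), beside 8.08% of all genes with a window. These were Tdrd9, with a peak at ZT 21.1 and a dawn difference of 0.14, and Acnat2, with a peak at ZT 5.43 and -0.08. The median dawn difference of the 13 was 0.00945.

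**Figure D3:**
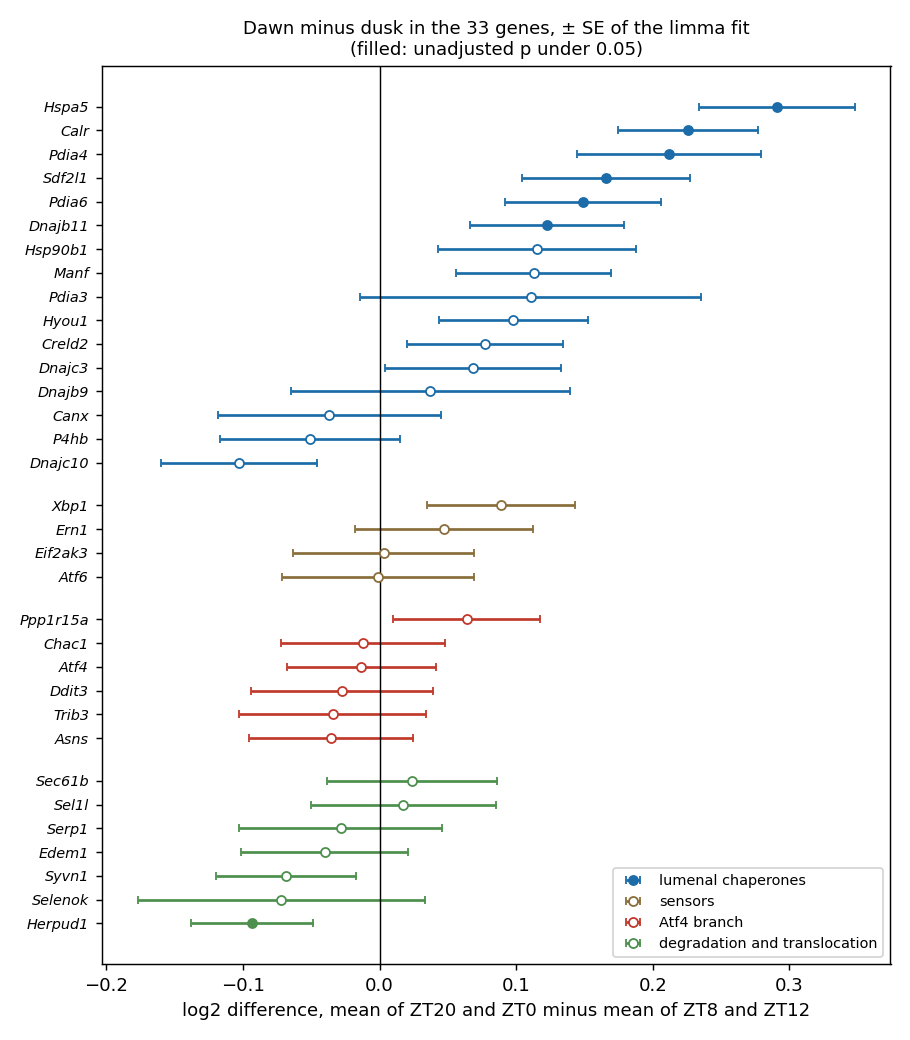
Log2 difference between dawn (ZT20 and ZT0) and dusk (ZT8 and ZT12) on the x axis for each of the 33 genes on the y axis, by role, with the SE of the limma fit as bars and filled points for an unadjusted p under 0.05. Values run from -0.10 (Dnajc10) to 0.29 (Hspa5), and 6 lumenal chaperones and Herpud1 are filled, of which the call of Herpud1 was lost in 13 of the 24 fits that leave out 1 array.

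Early light against early dark (mean of ZT0 and ZT4 minus mean of ZT12 and ZT16) gave higher values at an unadjusted p under 0.05 for Calr (0.25 ± 0.05 log2, SE), Hspa5 (0.19 ± 0.06), Hsp90b1 (0.17 ± 0.07) and Sdf2l1 (0.14 ± 0.06), and a lower one for Herpud1 (-0.13 ± 0.04). That was 4 and 1 of 33, beside 1093 (4.67%) and 1293 (5.52%) of all transcripts. None of the 33 passed the adjusted p, which 8 transcripts did (0.0342%), with Calr nearest at 0.0615 by limma. Without ZT0 replicate 2 the adjusted p of Calr was 0.0232, and without ZT16 replicate 2 it was 0.0439.

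As a description chosen after the values were seen, every ZT0 array lay above every ZT12 array for 3 of the 33 genes, Hspa5, Calr and the secreted factor gene Manf, beside 1.29% of all transcripts. Every ZT0 array lay below every ZT12 array for Herpud1, beside 2.27%. Without ZT0 replicate 4 the counts were 7 and 2, beside 3.08% and 5.37% of all transcripts in the same 3 against 4 arrays.

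No sensor was called in any of these tests. Xbp1, the transcription factor made by splicing of its own mRNA, read 6.96, 6.84, 6.90 and 7.16 at ZT0, 6.84, 6.92, 6.83 and 6.87 at ZT4, 6.81, 6.85, 6.98 and 6.78 at ZT8, 6.91, 6.93, 6.84 and 6.80 at ZT12, 7.11, 6.88, 6.86 and 6.88 at ZT16, and 6.84, 6.93, 7.08 and 6.90 at ZT20. Its time points overlapped throughout, the dawn difference was 0.09 ± 0.05 log2 (SE), and the rhythm test gave an unadjusted p of 0.195. The probe set does not separate spliced from unspliced Xbp1 mRNA.

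Ern1 encodes IRE1, the kinase and nuclease that splices Xbp1, and read 6.46, 6.53, 6.69 and 6.88 at ZT0, 6.69, 6.54, 6.30 and 6.60 at ZT4, 6.51, 6.73, 6.57 and 6.49 at ZT8, 6.56, 6.59, 6.46 and 6.57 at ZT12, 6.76, 6.46, 6.57 and 6.72 at ZT16, and 6.65, 6.53, 6.57 and 6.53 at ZT20. No time point stood apart. The unadjusted p of the rhythm test was 0.705 for Ern1, 0.873 for the kinase Eif2ak3 and 0.886 for Atf6, the factor released from the membrane by proteolysis.

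In the Atf4 branch no gene was called in the rhythm test or in either contrast. Ddit3, the proapoptotic factor CHOP, read 7.33, 7.50, 7.28 and 6.99 at ZT0, 7.16, 7.31, 7.39 and 7.26 at ZT4, 7.35, 7.41, 7.50 and 7.26 at ZT8, 7.36, 7.31, 7.35 and 7.62 at ZT12, 7.35, 7.55, 7.42 and 7.32 at ZT16, and 7.55, 7.55, 7.32 and 7.41 at ZT20. ZT0 replicate 4 was the lowest array and ZT12 replicate 4 the highest, and the time points overlapped. The cosine fold was 1.12 with an unadjusted p of 0.125.

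Trib3, a pseudokinase that restrains Ddit3 and Akt signalling, read 6.50, 6.74, 6.36 and 6.76 at ZT0, 6.50, 6.48, 6.40 and 6.57 at ZT4, 6.73, 6.74, 6.55 and 6.59 at ZT8, 6.47, 6.47, 6.64 and 6.80 at ZT12, 6.54, 6.51, 6.56 and 6.47 at ZT16, and 6.53, 6.37, 6.60 and 6.85 at ZT20. The widest time points were ZT0 and ZT20, each spanning most of the range over the day. The cosine fold of Trib3 was 1.03, at an unadjusted p of 0.883.

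Asns, the asparagine synthetase induced by Atf4, read 9.36, 9.22, 9.24 and 9.06 at ZT0, 9.17, 9.14, 9.15 and 9.16 at ZT4, 9.25, 9.31, 9.06 and 9.16 at ZT8, 9.26, 9.30, 9.12 and 9.11 at ZT12, 9.002, 9.07, 9.12 and 9.06 at ZT16, and 9.26, 9.06, 9.25 and 8.83 at ZT20. ZT4 was the tightest group and ZT20 the widest, with ZT20 replicate 4 the lowest array. The cosine fold of Asns was 1.08, at an unadjusted p of 0.307. Atf4 itself, the glutathione-degrading Chac1 and the phosphatase subunit Ppp1r15a (GADD34), which reverses eIF2 phosphorylation, had folds of 1.04, 1.06 and 1.06 and unadjusted p of 0.703, 0.458 and 0.467. Translational control of Atf4 is not read by an mRNA array.

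Whether a chaperone and an Atf4-branch gene differed in their course was tested on the difference of their log2 values within each array. A shift common to all genes of an array cancels in this difference, whereas a distortion that depends on level does not. The pairs were not tested again after a further quantile normalization. For all 6 pairs of Hspa5 or Calr with Ddit3, Trib3 or Asns the difference changed over the day at an adjusted p under 0.05 (permutation test of the cosine F statistic, 100000 resamples of the arrays over the time points, Benjamini-Hochberg over the 6). The pairs were named with earlier results of Hspa5 and Calr known, so these p-values are not independent of that choice. On their own Hspa5 and Calr had fitted sizes of 0.34 and 0.32 log2, so subtracting any gene with little change gives a similar course. No gene outside the Atf4 branch was used as the second of a pair, so the test does not single out that branch. Only the course of such a difference is read here, since levels of separate probe sets are not comparable.

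The difference of Hspa5 and Asns was 0.65 ± 0.05 log2 (SD, n = 4) at ZT0 and 0.24 ± 0.04 at ZT12, with ranges of 0.61 to 0.73 and 0.19 to 0.29 that did not overlap. Its fitted peak-to-trough size was 0.38 ± 0.07 log2 (SE), with a permutation p of 3.1e-04 and an adjusted p of 9.3e-04. The difference of Calr and Ddit3 was 1.40 ± 0.27 at ZT0 and 0.89 ± 0.13 at ZT12, with a size of 0.44 ± 0.09, a permutation p of 8e-05 and an adjusted p of 4.8e-04. Hspa5 against Ddit3 and Calr against Asns had sizes of 0.42 ± 0.11 and 0.31 ± 0.07 and adjusted permutation p of 0.00349 and 0.00314. With Trib3 the sizes were 0.38 ± 0.13 for Hspa5 and 0.35 ± 0.11 for Calr, with adjusted permutation p of 0.0324 and 0.0162, and with the time points as unordered groups both were at 0.0674. Leaving out 1 array took Hspa5 against Trib3 to adjusted permutation p of up to 0.0806 (without ZT12 replicate 4), and past 0.05 also without ZT0 replicates 1 and 3, ZT8 replicate 1, ZT12 replicate 3 and ZT20 replicate 2.

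**Figure D4:**
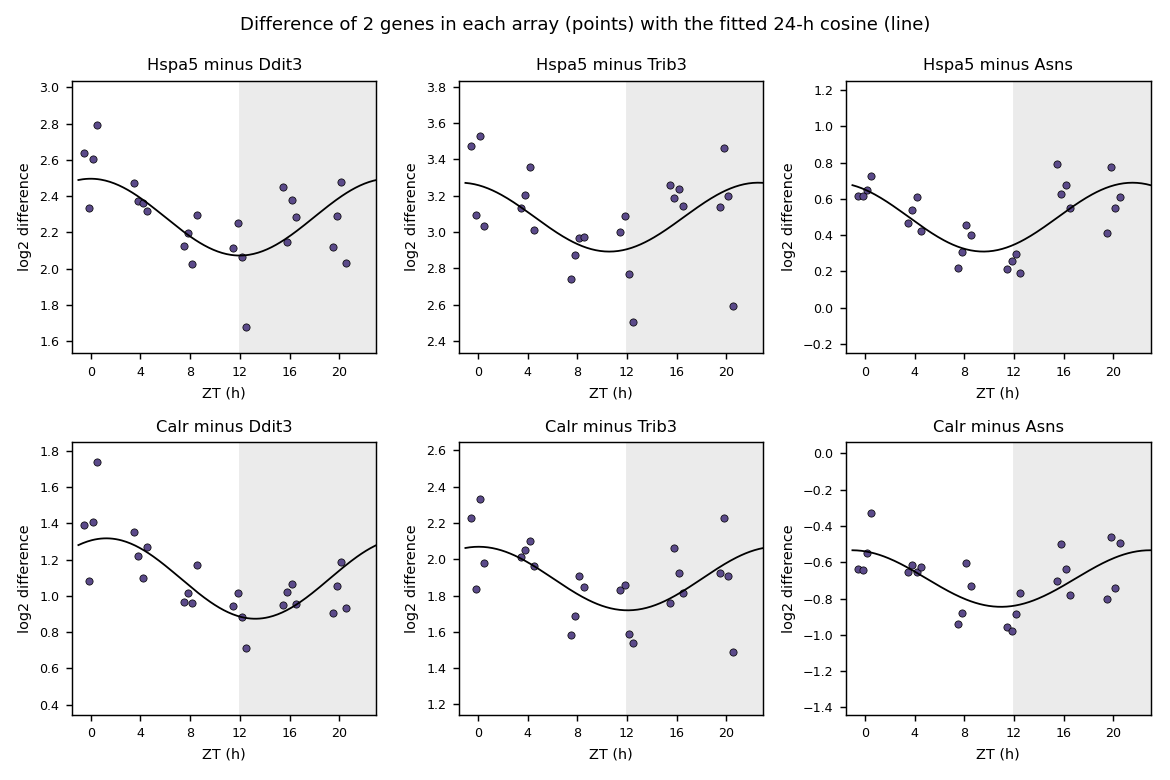
Log2 difference of 2 genes in each array (y axis, points) against ZT in hours (x axis), with the fitted 24-h cosine as a line and the dark phase in grey; each y axis spans 1.5 log2 units. The fitted peaks lie between ZT 21.5 and ZT 1.25, across lights on, with sizes of 0.31 to 0.44 log2.

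Mice of the same time point also differed in Hspa5, and the other genes were set against it within time points. In limma 0 of 23409 transcripts had a slope on Hspa5 at an adjusted p under 0.05 (0%), while at the unadjusted cut-off 2002 were positive (8.55%) and 1635 negative (6.98%). Of the other genes of the list 7 were positive, Hsp90b1, Pdia3, Pdia4, Dnajb9, Dnajc3, Canx and Asns, and Trib3 was negative. Of the 11705 transcripts above the median level 1785 were positive and 391 negative. Most positive slopes thus lay above the median level and most negative ones did not. The mean levels of Hsp90b1 and Asns were at percentiles 97.9 and 94.1 of all transcripts, and that of Trib3 at 43.0. The part of level in the sign of a slope was not tested. After a further quantile normalization the counts in the list were 2 positive and 0 negative (1.9% and 2.2% of all transcripts), and with a block for the number of the replicate they were 1 and 1 (1.75% and 2.08%).

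For the 5 genes fixed for correlation with Hspa5, deviations from the time point means were compared over 24 arrays with a permutation test within time points, adjusted over the 5. Hsp90b1 had r = 0.64 (permutation p = 8e-05, adjusted 4e-04) and rho = 0.74 (permutation p = 1.6e-04, adjusted 8e-04), and r = 0.72 without ZT20 replicates 4 and 2, the arrays farthest out in Hspa5. Trib3 ran opposite, with r = -0.67 (permutation p = 0.00495, adjusted 0.0124) and rho = -0.64 (permutation p = 0.00485, adjusted 0.0121), and r = -0.49 without those arrays. Asns had r = 0.62 (permutation p = 0.0216, adjusted 0.036) but rho = 0.47 (permutation p = 0.0604, adjusted 0.101), and r = 0.54 without them. Calr had r = 0.45 (permutation p = 0.087, adjusted 0.109) and rho = 0.34 (permutation p = 0.162, adjusted 0.203), with r = 0.19 without them. Ddit3 had r = 0.03 (permutation p = 0.905, adjusted 0.905) and rho = -0.01 (permutation p = 0.976, adjusted 0.976).

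The permutations within time points do not take account of the replicate number, and replicate 4 lay below the time point mean at 5 of 6 time points for both Hspa5 and Hsp90b1. With a block for replicate number, the limma slope on Hspa5 went from 0.91 (unadjusted p = 0.00245) to 0.76 (unadjusted p = 0.0669) for Hsp90b1. For Asns it went from 0.67 (unadjusted p = 0.00772) to 0.58 (unadjusted p = 0.092). For Trib3 it was -0.88 in both fits, with an unadjusted p of 0.00168 without and 0.0251 with the block. All 3 had an adjusted p of 0.994 with the block.

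**Figure D5:**
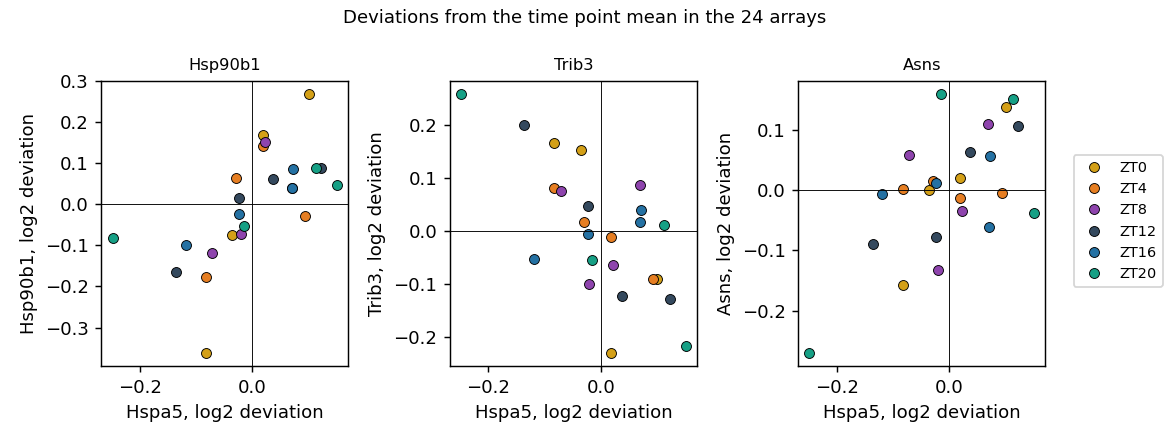
Log2 deviation from the time point mean of Hsp90b1, Trib3 and Asns (y axes) against that of Hspa5 (x axis) in the 24 arrays, coloured by time point. Hsp90b1 runs with Hspa5 (r = 0.64) and Trib3 against it (r = -0.67), with ZT20 replicate 4 at the far left of each panel. Hsp90b1 and Asns are high in mean level (percentiles 97.9 and 94.1) and Trib3 is below the median (43.0). The part of level was not tested.

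Of the degradation and translocation genes besides Herpud1, none was at the unadjusted cut-off in any of these tests. Sec61b, a subunit of the channel through which proteins enter the ER, read 8.31, 8.20, 8.31 and 8.48 at ZT0, 8.35, 8.62, 8.25 and 8.25 at ZT4, 8.41, 8.30, 8.33 and 8.39 at ZT8, 8.36, 8.33, 8.15 and 8.36 at ZT12, 8.41, 8.04, 8.21 and 8.14 at ZT16, and 8.31, 8.41, 8.49 and 8.31 at ZT20. Its ZT16 replicate 2 was the lowest array and ZT4 replicate 2 the highest, and its 3 probe sets had unadjusted p of 0.287, 0.084 and 0.185 in the rhythm test. The mannosidase-like Edem1, the ligase adaptor Sel1l, the ligase Syvn1, the membrane selenoprotein Selenok and the translocon-associated Serp1 had cosine folds of 1.08, 1.01, 1.06, 1.06 and 1.03 and dawn differences of -0.04 ± 0.06, 0.02 ± 0.07, -0.07 ± 0.05, -0.07 ± 0.11 and -0.03 ± 0.07 log2 (SE). Syvn1 and the lumenal chaperone Canx hold the ER stress element but had dawn differences below 0, unlike the other 6 listed genes with it.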

How the data were processed

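Total RNA from VTA punches was hybridised to Affymetrix GeneChip Mouse Gene 1.0 ST arrays, 1 per sample. The deposited values are log2 expression per probe set, made by the authors with RMA (background correction, quantile normalization and median polish) in R 2.13.1, per the labels. The number of arrays limits the precision. The methods text gives another sampling interval than the labels, and the time points follow the labels. All 24 columns were mapped by the labels, and 0 were left over.

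Of 35556 probe sets, 23410 have a gene in the array annotation (21789 with 1 symbol, 1621 with several, which name no gene here) and 12146 have none. The members and lists were chosen with earlier results of these data known. Tests used limma 3.58.1 in R 4.3.3: a moderated F-test of the cosine and sine of ZT (24 h, in place of CircWave, which the study used), contrasts of the 6 time points, and slopes on Hspa5 within time points, all adjusted by Benjamini-Hochberg over all transcripts and checked on simulated data. Permutation tests used Python 3.11.15 with NumPy 2.4.6. The labels give the 4 replicates of a time point only as separate samples, and the study describes its replicates as biologically independent. The p-values measure the spread between these samples, which may be partly technical. Over all transcripts, deviations of same-numbered samples had a median r of 0.026 (14 of 60 pairs above 0.1), beside -7.07e-05 for other pairs. On this weak pairing no block is in the main tests. Single genes can still share it, since replicate 4 lay low at 5 of 6 time points for Hspa5 and Hsp90b1. The block also took the transcripts with a positive slope on Hspa5 at an unadjusted p under 0.05 (limma) from 2002 to 410. Values in every array are given for Hspa5, Calr, Ddit3, Trib3 and Asns, the 6 with the smallest rhythm p and the 2 of each role with the smallest. From each further list of pathway genes the 3 with the smallest rhythm p are named. Promoter windows were RefSeq's (GRCm38.p6) and matched 30 of 33 genes by symbol. Alternatives were a replicate block, other scalings, the whole set of probe sets, a restriction to transcripts of higher level, array weights, a robust trended eBayes, arrays and time points left out, probe sets averaged, and other rhythm tests. After the data were seen, 2 alternatives were added for the ZT0 against ZT12 counts.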

Additional observations from a re-analysis of the deposited data

Results flagged for a closer look

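In 11 of 198 groups (33 genes at 6 time points) 1 array lay apart from the other 3, its gap to the nearest being more than 0.829 of the range of the group (Dixon's critical value), and chance alone flags about 1 in 20 groups. On ZT0 replicate 4, the array that stood apart as a whole, this held for 2 genes. P4hb at ZT0 replicate 4 read 8.31, above the other 3 arrays (7.91 to 7.95). Dnajc3 at ZT0 replicate 4 read 8.37, below the other 3 arrays (8.74 to 8.79). P4hb encodes the main disulfide isomerase and Dnajc3 a cochaperone of Hspa5.

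Of the other lumenal chaperones, 4 were set apart at 1 time point. Pdia3 at ZT12 replicate 4 read 8.45, below the other 3 arrays (8.69 to 8.73). Creld2 at ZT16 replicate 1 read 7.06, below the other 3 arrays (7.34 to 7.40). Manf at ZT20 replicate 1 read 7.30, below the other 3 arrays (7.57 to 7.61). Hyou1 at ZT12 replicate 1 read 7.07, below the other 3 arrays (7.16 to 7.17).

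Among the sensors, Atf4-branch, degradation and translocation genes there were 5. Xbp1 at ZT16 replicate 1 read 7.11, above the other 3 arrays (6.86 to 6.88). Ddit3 at ZT12 replicate 4 read 7.62, above the other 3 arrays (7.31 to 7.36). Chac1 at ZT16 replicate 3 read 7.61, above the other 3 arrays (7.45 to 7.47). Herpud1 at ZT8 replicate 4 read 7.84, below the other 3 arrays (7.96 to 7.97). Selenok at ZT4 replicate 4 read 5.28, below the other 3 arrays (5.58 to 5.62). No cause was tested for these values.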

How the results depend on the processing

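Directions and sides of the threshold were kept in 1479 comparisons of single genes with their alternatives, the sign turned in 38, and 16, all for Hspa5 or Calr, passed an adjusted p under 0.05 that the main test missed; the cause was not tested. The turned signs were all of values within 1 SE of 0 in the main test, none at an unadjusted p under 0.05. The slope on Hspa5 of Ddit3 (0.0358) was -0.47 with the replicate block and -0.123 to 0.257 without single arrays. The early light difference of Xbp1 (0.0133) was -0.0104 with array weights, -0.0369 without ZT0, -0.0186 without ZT12 and -0.0199 to 0.0423 without single arrays. The early light difference of Ern1 (0.00249) was -0.0153 with array weights, -0.0515 without ZT0, -0.0385 without ZT12 and -0.0379 to 0.0408 without single arrays. The dawn difference of Ddit3 (-0.0274) was 0.0148 with array weights, 0.0627 without ZT0 and -0.0642 to 0.0198 without single arrays. The early light difference of Trib3 (-0.0192) was 0.0323 without ZT4, 0.0188 without ZT12 and -0.0471 to 0.0191 without single arrays. The dawn difference of Trib3 (-0.0343) was -0.0775 to 0.00402 without single arrays. The dawn difference of Sec61b (0.0237) was -0.00439 without ZT12, -0.00449 without ZT20 and -0.00259 to 0.0449 without single arrays. The dawn difference of Asns (-0.0356) was 0.0236 without ZT20 and -0.0621 to 0.00956 without single arrays. The early light difference of Asns (0.0571) was -0.00927 without ZT16. The adjusted p of the rhythm ranged from 0.0132 to 0.649 for Hspa5 and from 0.0252 to 0.62 for Calr over 41 alternatives each. The number of the 33 genes at an adjusted p under 0.05 in the rhythm test was 0 in the main test, 2 after a further quantile normalization, 1 among transcripts above the median level, 1 without the arrays of ZT20 and 0 to 2 without single arrays (2 without ZT20 replicate 4, 1 without ZT16 replicate 2). In dawn against dusk it was 0, 1 after the further normalization, 1 above the median level, 2 with array weights and 0 to 1 without single arrays (1 without ZT20 replicate 4), and in early light against early dark 0, 1 above the median level, 1 with array weights and 0 to 1 without single arrays (1 without ZT0 replicate 2 and without ZT16 replicate 2). At an unadjusted p the rhythm count of 6 was 3 without the arrays of ZT12 and with time as a factor, and 4 to 7 without single arrays, and the lumenal count of 5 was 3 without ZT8, 2 without ZT12, 3 with time as a factor and 3 to 6 without single arrays (3 without ZT12 replicate 1). The dawn count of 6 higher was 12 with array weights and 5 to 9 without single arrays (9 without ZT0 replicate 4); that of 1 lower (Herpud1) was 0 with the replicate block, after the further normalization and without any of the time points ZT0, ZT4, ZT8, ZT12 or ZT16, and 0 to 2 without single arrays: 2 without ZT8 replicate 4, and 0 without ZT0 replicate 2, ZT0 replicate 3, ZT4 replicate 1, ZT4 replicate 3, ZT8 replicate 1, ZT8 replicate 2, ZT8 replicate 3, ZT12 replicate 2, ZT12 replicate 3, ZT12 replicate 4, ZT20 replicate 1, ZT20 replicate 2 or ZT20 replicate 4. The early light count of 4 higher was 2 without ZT0, 1 without ZT12 and 2 to 5 without single arrays (2 without ZT16 replicate 4); that of 1 lower was 2 with array weights, 0 without ZT0 and 1 to 2 without single arrays (2 without ZT0 replicate 2, ZT4 replicate 3, ZT12 replicate 2 or ZT16 replicate 4). Of all transcripts 8.91% were called in the main rhythm test, 7.34% without ZT8 and 6.84% without ZT12. At dawn 2.03% were higher in the main test, 2.92% with array weights and 1.94% without ZT0 replicate 4. In early light 4.67% were higher in the main test, 3.21% without ZT0, 3.82% without ZT12 and 3.86% without ZT16 replicate 4. Lower in early light were 5.52%, 7.82% with array weights and 3.61% without ZT0. The lumenal median of early light, 0.0691, was 0.0279 without ZT12, 0.111 without ZT16 and 0.0436 to 0.0854 without single arrays (0.0436 without ZT16 replicate 4). Covariation with Hspa5 (7 positive, 1 negative, beside 8.55% and 6.98% of all transcripts) gave 1 positive with the replicate block (1.75%). After the further normalization it gave 2 positive (1.9%) and 0 negative (2.2%). Adjusted permutation p of Hspa5 against Trib3 was 0.0324, 0.0674 with time as a factor and 0.000912 to 0.0806 without single arrays, and of Calr against Trib3 0.0162 and 0.0674 with time as a factor. The ZT0 against ZT12 counts of 3 and 1 were 7 and 2 without ZT0 replicate 4, a setting chosen after seeing the data. The block for replicate number changed no other count by over 1.5 times and no adjusted call.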

Other observations

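Of 163 further measured genes of the pathway in 6 lists, 7 were at an unadjusted p under 0.05 in the rhythm test (4.29%), beside 8.91% of all transcripts, and their median dawn difference was -0.03 log2. At that cut-off 0 of the 163 were higher at dawn and 7 lower, beside 2.03% and 2.69% of all transcripts. A single gene passed the adjusted p: Slc7a5, which carries large neutral amino acids and is induced by Atf4, with a fold of 1.34, a peak at ZT 13.2 and an adjusted p of 0.00741 by limma. Among 38 measured Atf4 targets it was followed by Ddit4 (unadjusted p = 0.00307, peak at ZT 14.8) and Phgdh (unadjusted p = 0.0407, peak at ZT 0.627). Among 39 genes of ER folding the smallest p were those of the membrane oxidoreductase Tmx1 (unadjusted p = 0.00479, peak at ZT 11), the peroxiredoxin Prdx4 (unadjusted p = 0.0251, peak at ZT 8.43) and Sdf4 (unadjusted p = 0.0687, peak at ZT 6.6). Tmx1 and Prdx4 had dawn differences of -0.26 and -0.19 log2, the opposite sign to Hspa5, at unadjusted p of 0.0021 and 0.0182. Among 24 genes of ER degradation they were Tmub1 (unadjusted p = 0.0363, peak at ZT 3.52), Ube2j1 (unadjusted p = 0.0895, peak at ZT 9.67) and Ube2j2 (unadjusted p = 0.12, peak at ZT 16.3), and among 36 of translocation and glycosylation, where 0 were at the cut-off, Sar1b (unadjusted p = 0.0515, peak at ZT 7.64), Sec11c (unadjusted p = 0.0685, peak at ZT 6.43) and Srp9 (unadjusted p = 0.0777, peak at ZT 3.17). Among 13 eIF2 kinases, phosphatases and partners they were Ppp1ca (unadjusted p = 0.0308, peak at ZT 6.25), Eif2s3x (unadjusted p = 0.108, peak at ZT 10.6) and Eif2b4 (unadjusted p = 0.141, peak at ZT 14.5), and among 13 factors related to Atf6 and Xbp1, with 0 at the cut-off, Nfyb (unadjusted p = 0.122, peak at ZT 6.68), Rtcb (unadjusted p = 0.144, peak at ZT 6.38) and Atf6b (unadjusted p = 0.166, peak at ZT 2.87).

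Chaperones outside the ER were set beside the lumenal ones. Of 18 measured heat shock and cochaperone genes of cytosol and mitochondria, 6 were at an unadjusted p under 0.05 in the rhythm test (33.3%), with all 6 peaks between ZT20 and ZT2, beside 5 of 16 lumenal chaperones (31.2%), and 0 passed the adjusted p. They were Hspa8, Hspb1, Dnajb1, Cryab, Fkbp4 and St13. Their list had a median dawn difference of 0.09 log2 with 5 higher, and the lumenal list 0.11 with 6 higher. In early light against early dark the median was 0.112 log2 with 7 of 18 higher for their list. It was 0.0691 with 4 of 16 for the lumenal one. Within time points 12 of their slopes on Hspa5 were positive at an unadjusted p under 0.05, against 6 lumenal ones. Of all transcripts 8.91% were at the cut-off in the rhythm test, 2.03% were higher at dawn and 4.67% in early light. Positive slopes were found for 8.55%, or 1785 of the 11705 transcripts above the median level. With a block for replicate number that share of all transcripts was 1.75%, and the slopes of this list were not counted with the block. The constitutive Hspa8 had a cosine fold of 1.18 with a peak at ZT 1.4, and the small heat shock protein gene Hspb1 one of 1.18 with a peak at ZT 20.5, with adjusted p of 0.35 and 0.41 by limma. The difference between the lists was not tested.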
